A study of Oryza sativa with 36 samples.

Results

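Leaves of the chilling-sensitive rice cultivar IR29 after 8 h at 4 °C are described here against IR29 leaves that stayed at 29 °C. The members were chosen by sample title: 3 arrays of IR29 chilled for 8 h and 3 arrays of the IR29 control, which make 6 of the 36 arrays of the series. The study set IR29, an indica cultivar, beside the chilling-tolerant japonica landrace Li-Jiang-Xin-Tuan-Hei-Gu (LTH). S3-stage seedlings raised in soil at 29 °C were moved to 4 °C, and leaf RNA was hybridised to the Affymetrix rice genome array, on which a set of short probes (a probe set) reports 1 transcript as 1 normalized intensity. Both genotypes were sampled at 2, 8, 24 and 48 h of chilling and 24 h after return to 29 °C.

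Some features of the groups limit what they can show. Both are whole leaf samples of 1 genotype without an introduced gene or other agent, so fewer cells of a type and less RNA per cell cannot be told apart. Each genotype has 1 control group in the labels. In the methods, control leaves were taken at every time, so the time of day and chilling cannot be told apart. The 3 arrays of a group are labelled as biological replicates. The treatment notes tie replicates to soil plates, but nothing says how many seedlings a sample held.

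Chilling of a warm-climate plant such as rice stiffens membranes and is followed within minutes by a calcium signal. DREB1/CBF factors, which bind the C-repeat element in the promoters of cold-induced genes, are among the earliest transcription factors to be induced, and the MYBS3 factor acts in a later and separate branch in rice. Jasmonate, abscisic acid, sugars and the redox state of the chloroplast also change in cold leaves, while small heat shock proteins, which keep other proteins from aggregating, are best known from warmth.

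The 6 arrays were alike in scale, with medians between 10.21 and 10.63 in normalized intensity, against 9.81 to 11.16 over all 36. Leaf mesophyll genes marked both groups as leaf. In limma none of the 7 mesophyll markers was called (0 at an unadjusted p under 0.05 and 0 by the methods' t-test), and RCA, which encodes Rubisco activase, gave 5124, 5288 and 4993 at 8 h against 5152, 5637 and 5348 in control. Within groups, the second 8 h array stood furthest apart, with a lowest correlation of 0.936 to another 8 h array, while no pair of control arrays correlated below 0.954. Anther and pollen markers were near the bottom of the scale, with summed intensities of 15 to 16 over 4 genes at 8 h and 28 to 38 in control. Root-associated and growth genes were measurable and varied between arrays, as given beside the growth genes below.

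Chilling for 8 h changed a large part of the measured transcripts in IR29. In all, 4146 probe sets (7.24% of 57258) were up-regulated and 4567 (7.98%) were down-regulated, at an adjusted p below 0.05 in limma and a change of at least 2-fold. The median log2 fold change over all probe sets was -0.02. Large rises outnumbered large falls: 1570 probe sets rose and 1117 fell at least 4-fold, and 196 rose and 52 fell at least 16-fold. The 3 chilled arrays did not overlap the 3 control arrays in 4054 of the up-regulated and 4504 of the down-regulated probe sets. Over all probe sets such separation was seen in 19.2% upward and 22.3% downward. Many of the calls were of dim transcripts, since the group means differed by at least 100 intensity units in 1705 of the rises and 1933 of the falls. Counted once per gene by the brightest probe set, 1889 of 17905 genes (10.6%) were higher and 2170 (12.1%) lower. Of the 2458 genes with a gene name, the background for the lists below, 13.3% were higher and 11.7% lower, with a median log2 fold change of 0.02.

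The largest rise among genes with a name or locus was that of ACA7, annotated as a calcium-transporting ATPase, a pump that carries calcium out of the cytosol. It gave 1326, 1373 and 1308 at 8 h and 15.8, 15.9 and 17.8 in control, a log2 fold change of 6.34 ± 0.26 (SE, adjusted p = 4.5e-16). The arrays of each group lay close together and far from those of the other group. AMY1.3, an alpha-amylase gene of starch breakdown, followed with 274, 217 and 304 against 5.14, 6.11 and 2.13 (6.02 ± 0.71, adjusted p = 1.9e-07). All 3 control arrays were near the bottom of the scale. LOC_Os04g51460, which encodes a xyloglucan endotransglucosylase/hydrolase that cuts and rejoins cell wall xyloglucan, gave 1782, 1492 and 1253 at 8 h and 32.5, 32.6 and 30.5 in control (5.55 ± 0.49). The MYB factor gene MYB2 gave 1341, 1318 and 1492 against 62.8, 34.1 and 36.6 (5.01 ± 0.29). Non-overlapping groups were a condition for naming these genes, so their separation is no finding.

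The remaining genes of the 12 largest rises with a name or locus had log2 fold changes of 5.54 for BCL1, 5.34 for LOC_Os06g46140, 5.11 for the cortical cell delineating protein gene LOC_Os10g40480, 5.10 for the homeobox gene HOX12, 5.09 for Os02g0629000, 5.05 for the AP2 domain gene Os09g0457900, 4.94 for CBF3 and 4.87 for the permease gene LOC_Os03g60880. Their precision differed. LOC_Os06g46140 gave 657, 1635 and 692 at 8 h and 22.8, 22.8 and 21.4 in control, with tight controls. BCL1 gave 647, 424 and 689 against 9.6, 45.2 and 4.31, with a standard error of 1.59, and was not called without the third control array (4.78, adjusted p = 0.064). A further 24 genes without a name or locus rose by at least as much as the last of these.

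The deepest fitted fall was that of HSP16.0, of the small heat shock protein family. It gave 2.3, 2.33 and 4.81 at 8 h and 838, 641 and 940 in control, a log2 fold change of -8.07 ± 0.74 (adjusted p = 1.9e-09). All chilled arrays were at the bottom of the scale and all control arrays were far above it, so the size of the fall is set by the low end of the scale and is a bound rather than a measured value. Os03g0782200, a gene of unknown function, fell to 10, 12 and 10.5 at 8 h, against 1862, 1489 and 2045 in control (-7.37 ± 0.87). LOC_Os06g12320, an amino acid transporter gene, fell to 2.08, 4.63 and 2.94, against 304, 186 and 404 in control (-6.54 ± 0.64). An early light-inducible protein gene, Os07g0178700, whose family binds chlorophyll in light-stressed plastids, fell to 2.74, 3.69 and 6.23, against 391, 276 and 337 in control (-6.38 ± 0.78). The chilled arrays of LOC_Os06g12320 and Os07g0178700 were likewise at the bottom of the scale, so the order of these falls is not settled.

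The other 8 of the 12 largest falls were HSP18.6 (-5.37), LOC_Os02g15860 (-5.05), Os10g0140700 (-4.74), the heat shock cognate 70 gene Os01g0840100 (-4.67), the cytochrome P450 gene LOC_Os03g12260 (-4.59), the aquaporin gene TIP1 (-4.44), Os10g0205700 (-4.40) and LOC_Os05g50500 (-4.36), all as log2 fold changes. Of these 12 falls, 3 were of heat shock genes. A further 6 genes without a name or locus fell by at least as much.

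**Figure D1:**
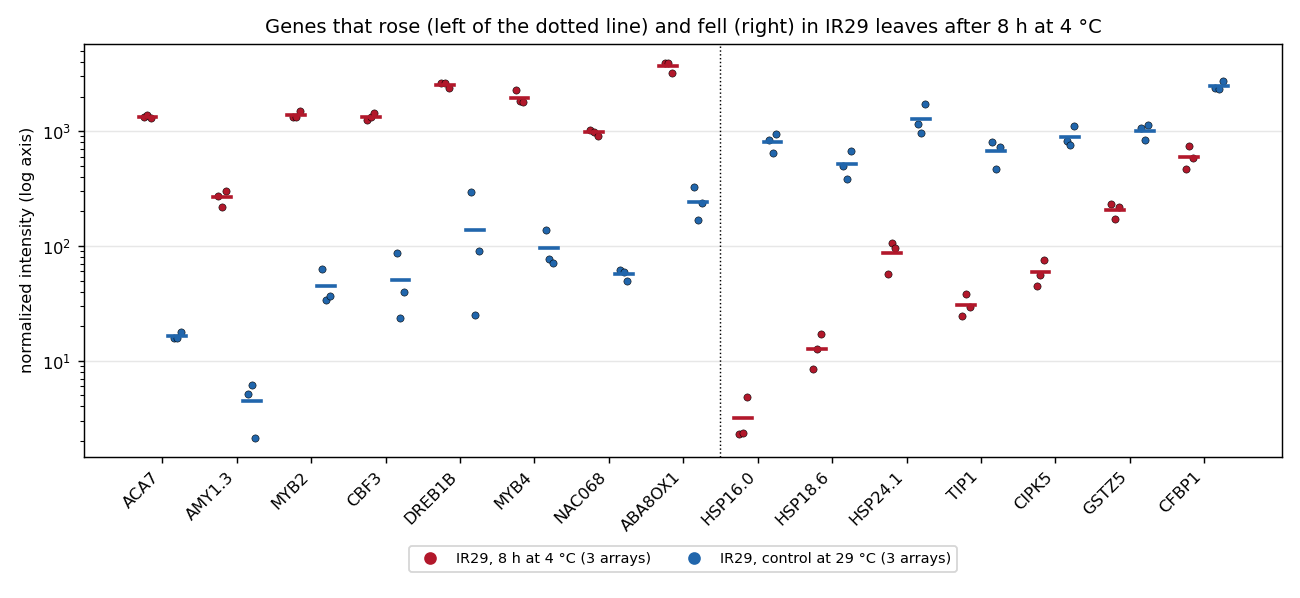
Normalized intensity (log axis) of 15 genes in IR29 leaves after 8 h at 4 °C (red, left in each pair) and in IR29 control leaves (blue), with each point 1 array and each bar the mean of 3. The chilled and control arrays do not overlap in any of the 15 genes. This was a condition for naming the largest rises and falls, but not for genes named from the lists, such as DREB1B, CIPK5 and CFBP1. The spread in control is widest for DREB1B, from 24.9 to 296.

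Of 12 AP2/ERF transcription factor genes, the list that holds the DREB1/CBF factors, 6 were up-regulated, with a median log2 fold change of 0.86. DREB1B gave 2656, 2624 and 2364 at 8 h and 296, 24.9 and 90.5 in control (4.86 ± 0.71, adjusted p = 5.7e-06). CBF3, the DREB1A gene, gave 1254, 1328 and 1434 against 87.6, 23.6 and 40 (4.94 ± 0.46, adjusted p = 2.9e-09). DREB1G gave 1028, 1143 and 927 against 51.5, 27.2 and 33.3 (4.84 ± 0.38). The 8 h arrays of each of these genes agreed closely, whereas the control arrays of DREB1B spanned an order of magnitude. DREB1E was more variable at 8 h, with 256, 69.2 and 217 against 35.9, 11 and 14.2 (3.14 ± 0.69). DREB2B, of the branch known from drought and heat, rose by 1.16. DREB2A gave 12.5, 15.9 and 19.2 against 10.2, 8.94 and 12.9 and CBF1 gave 5.6, 3.64 and 4 against 10.8, 4.78 and 8.46, and neither passed the test. The probe set named CBF1 was near the bottom of the scale and was not tied to a locus. It was therefore not matched to the OsCBF1 of the study, reported there as strongly induced in both genotypes. The AP2 genes AP2-1 and EREBP-1 stayed within 2-fold, with log2 fold changes of 0.19 and 0.48.

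The MYB list split evenly, with 3 of 11 genes higher, 3 lower and a median of 0.35. MYB4, a cold-induced activator in rice, gave 2273, 1831 and 1785 at 8 h and 139, 76.9 and 70.8 in control (4.42 ± 0.23, adjusted p = 4.8e-14). The falls were led by myb17, with 62.8, 59 and 60 against 293, 326 and 372 (-2.44 ± 0.30). MYBS3 gave 1980, 2395 and 2174 against 1163, 1211 and 1388. Its arrays did not overlap and its adjusted p was 2.1e-06, but its log2 fold change of 0.80 ± 0.11 was below the 2-fold limit. A dimmer second probe set of MYBS3, with means of 170 at 8 h and 224 in control, was not called and had the other sign (-0.39). MYB15 was likewise short of 2-fold at 0.69 ± 0.14.

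Among 8 NAC factors, 4 were up-regulated (median 1.45). NAC068 gave 1032, 990 and 908 at 8 h and 61.5, 58.9 and 49.3 in control (4.12 ± 0.30, adjusted p = 4e-11). NAC067 started from a brighter control level, with 2395, 2917 and 2208 against 936, 462 and 735 (1.87 ± 0.26). NAC45 and NAC076 rose by 2.72 and 2.59, and the group means of both differed by less than 100 intensity units. NAC45 was not called by the methods' t-test, with or without adjustment. NAC076 was at a low level throughout, and its second probe set, at the bottom of the scale, was not called (-0.13). Of 6 WRKY factors, which are best known from defence, 3 rose (median 1.59). WRKY71 gave 3474, 3830 and 3372 against 1190, 497 and 709 (2.25 ± 0.19) and WRKY24 rose by 3.41 ± 0.32.

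The jasmonate genes were up-regulated as often as the AP2/ERF list. JAZ proteins repress jasmonate responses and are themselves made when the hormone is sensed, while lipoxygenases, allene oxide synthases and oxophytodienoate reductases form its synthesis pathway. Of 36 such genes 18 were higher and 2 lower, with a median log2 fold change of 1.22. JAZ13 gave 1842, 3193 and 2455 at 8 h and 437, 60.3 and 124 in control (4.04 ± 0.59, adjusted p = 5.3e-06). JAZ9 gave 1192, 1563 and 1119 against 140, 60.9 and 59.9 (4.00 ± 0.46). All 8 h arrays of both genes were above 1000, and their control arrays were lower and more scattered. AOS2, an allene oxide synthase gene at the branch into jasmonate synthesis, gave 816, 455 and 698 against 39.1, 40.6 and 32.1 (4.10 ± 0.24, adjusted p = 4.6e-13). JAZ5 rose by 4.24 ± 0.95 at a low level. JAZ1 and JAZ7, the brightest members that did not pass, had log2 fold changes of -0.01 and 0.59. Ethylene synthesis held 3 genes, of which ACS2, an ACC synthase gene of its committed step, gave 52.5, 105 and 46.8 against 9.47, 13.1 and 17.4 (2.30 ± 0.44). ACS1 was at the bottom of the scale, with 6.33, 2.39 and 5.86 against 1.97, 1 and 1.98.

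Calcium sensors and kinases changed in both directions. Of 82 genes 20 were higher and 8 lower, with a median of 0.27. Beside ACA7, the calmodulin-like gene CML14 gave 121, 280 and 170 at 8 h and 4.8, 5.54 and 12.8 in control (4.68 ± 0.42, adjusted p = 1.5e-09). The calcium-dependent protein kinase gene CPK21 gave 33.6, 41.9 and 54 against 1.78, 1.02 and 1.96 (4.80 ± 0.50). Both were near the bottom of the scale in every control array. CIPK5, a kinase that acts with calcineurin B-like calcium sensors, fell to 45, 56 and 75.5, against 825, 757 and 1113 in control (-3.95 ± 0.37, adjusted p = 4.2e-09). The bright calmodulin gene CAM3 gave 1551, 1486 and 1486 against 1424, 1544 and 1412, and its groups overlapped.

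Type 2C protein phosphatases, which include the brakes of abscisic acid signalling, and MAP kinases had 14 of 72 genes higher and 5 lower (median 0.08). The MAP kinase gene BIMK1 gave 1263, 1704 and 1208 at 8 h and 182, 100 and 133 in control (3.36 ± 0.23, adjusted p = 8.7e-12). The phosphatase genes PP2C32, PP2C29 and PP2C69 rose by 2.54 ± 0.20, 2.67 ± 0.28 and 2.68 ± 0.53. The bright members PP2C10 and MPK8 stayed within 2-fold, at -0.05 and 0.28, although a second probe set of MPK8, near the bottom of the scale, was called higher (1.88).

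**Figure D2:**
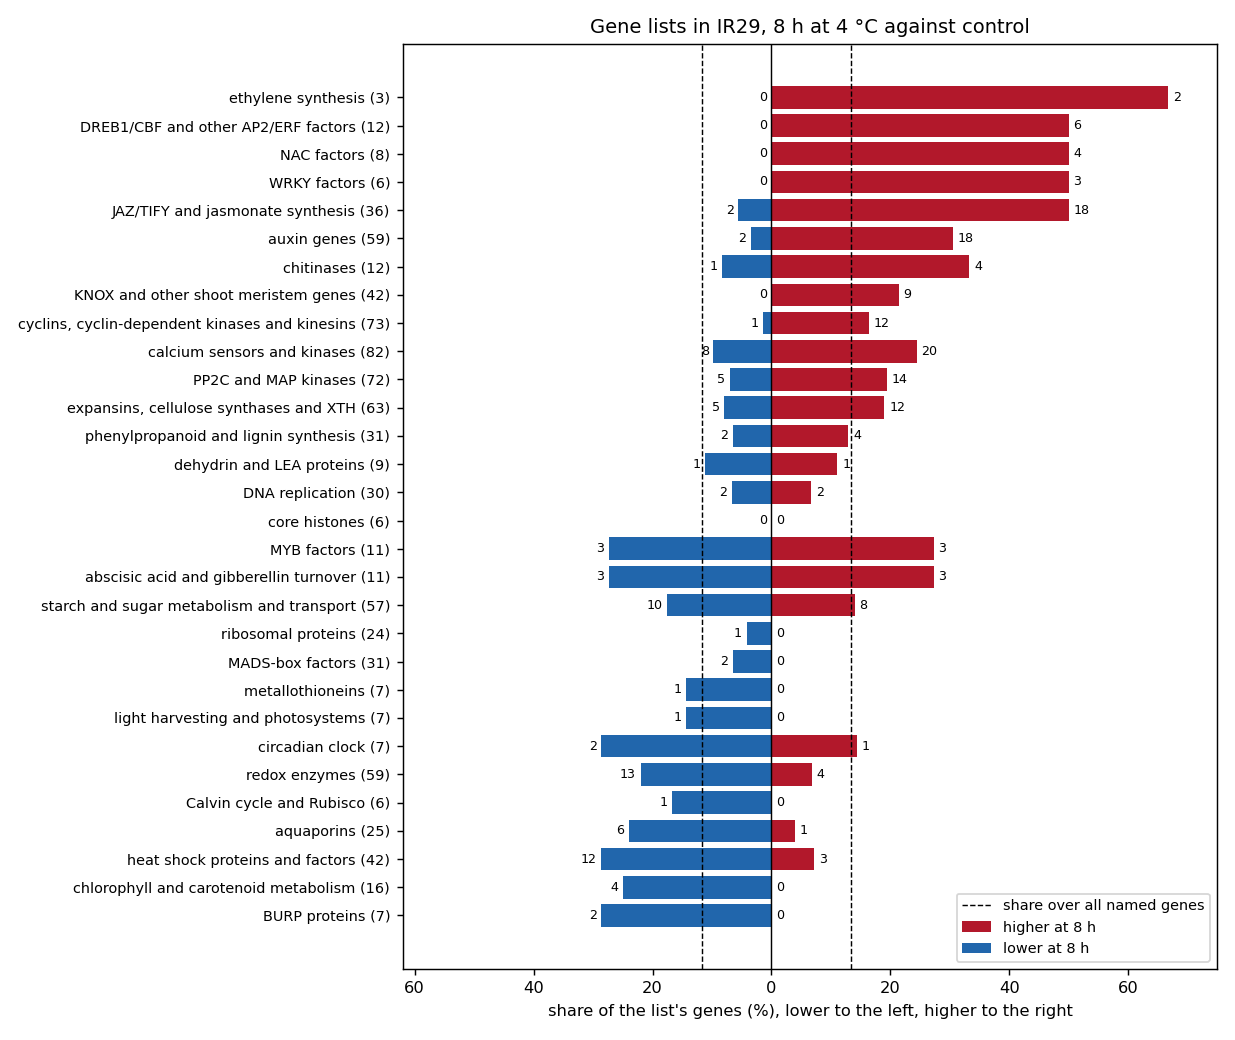
Share of each list's genes (%) called higher (red, to the right) and lower (blue, to the left) in IR29 after 8 h at 4 °C against control, with list sizes in parentheses and counts at the bar ends. The dashed lines mark the shares over all 2458 named genes, 13.3% higher and 11.7% lower; AP2/ERF, NAC, WRKY and jasmonate lists each reach 50% higher.

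Heat shock genes were mostly down-regulated where they changed. Of 42 genes 12 were lower and 3 higher, with a median of -0.32. The falls were of small heat shock proteins, ClpB chaperones and some heat shock factors. HSP24.1 fell to 56.8, 106 and 95.6 at 8 h, against 1166, 967 and 1731 in control (-3.91 ± 0.78, adjusted p = 0.00032). HSP18.6 fell to 8.49, 12.7 and 17, against 500, 387 and 666 in control (-5.37 ± 0.82). Os01g0840100, the heat shock cognate 70 gene, fell to 58.9, 84.8 and 86, against 1806, 1775 and 2188 (-4.67 ± 0.91). The groups were separated by wide gaps in all of these. The factor HSF2 fell by 3.84 on the log2 scale, and its next probe set, near the bottom of the scale, was not called. The 3 rises, named after their values were seen, were all of heat shock factors: HSF07 (2.47), HSF09 (2.13) and HSF23 (1.67). The HSP90 genes HSP81-2 and HSP81-3 stayed bright, with 3178, 3405 and 3211 against 2502, 2637 and 2519 and 2150, 2485 and 2279 against 2860, 2884 and 3306.

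Starch and sugar genes moved in both directions, 8 higher and 10 lower of 57 (median 0.11). TPP1, a trehalose-6-phosphate phosphatase gene, gave 1555, 1967 and 1830 at 8 h and 193, 114 and 146 in control (3.59 ± 0.26, adjusted p = 2.8e-11). SWEET14, a sucrose efflux carrier gene, gave 355, 638 and 379 against 42, 34 and 54.6 (3.37 ± 0.40). SWEET11 of the same family gave 607, 347 and 689 against 48.4, 158 and 21 (3.27 ± 1.11). In SWEET14 the control arrays were alike, whereas in SWEET11 the second control array was the highest and the second 8 h array the lowest. SWEET11 was not called without the first or the third array of either group, with log2 fold changes of 2.59 to 3.19 and adjusted p from 0.082 to 0.17. The sucrose synthase genes SUS1 and SUS2 did not pass, at 1.44 ± 0.96 and 0.87 ± 0.31.

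Abscisic acid and gibberellin turnover had 3 of 11 genes higher and 3 lower. ABA8OX1, an abscisic acid 8'-hydroxylase gene that degrades the hormone, gave 3912, 3947 and 3202 at 8 h and 325, 169 and 236 in control (3.96 ± 0.31, adjusted p = 1.1e-10). Its relative ABA8OX2 fell to 81.6, 203 and 121, against 377, 364 and 442 in control (-1.64 ± 0.32). GA20OX2, the gibberellin 20-oxidase gene of the semidwarf locus, fell to 40, 38.7 and 50.9, against 140, 158 and 175 (-1.87 ± 0.32). The pair of hydroxylase genes moved in opposite directions. Of 9 dehydrin and LEA genes 1 was higher and 1 lower, with a median log2 fold change of -0.85. Dhn1 rose by 1.53 ± 0.22, although its dimmer second probe set was not called. EM fell to 8.02, 6.71 and 7.69 at 8 h, near the bottom of the scale, against 67.9, 106 and 16.2 in control (-2.71 ± 0.84).

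Several lists of growth genes had a larger share called higher than the 13.3% of named genes, while other cell division lists did not, with 2 of 30 DNA replication genes, none of the 6 core histones (1 higher at an unadjusted p under 0.05, 0 by the methods' t-test) and 2 of 17 dividing cell markers. Of 59 auxin genes 18 were higher (30.5%) and 2 lower, with a median of 0.61. Of 42 KNOX, GRF and other shoot meristem genes 9 were higher (21.4%, median 0.89). Of 63 expansin, cellulose synthase and XTH genes 12 were higher (19%) and 5 lower (median 0.61). The 73 cyclins, cyclin-dependent kinases and kinesins were nearest to the 13.3%, with 12 higher (16.4%) and 1 lower (median 0.71). GRF1, a growth-regulating factor of young leaves, gave 197, 127 and 159 at 8 h and 7.45, 29.5 and 6.62 in control (3.80 ± 0.69, adjusted p = 0.00011). OSH71, a knotted1-like homeobox gene, gave 116, 173 and 109 against 20.6, 16.4 and 9.56 (3.14 ± 0.99, adjusted p = 0.02). The control arrays of GRF1 were unequal and the second was the highest, but both genes were separated between groups. OSH71 was not called without the third control array (2.82, adjusted p = 0.086) or without the second 8 h array (2.93, 0.07).

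The mitotic cyclin gene CYCB1-1 gave 306, 126 and 244 at 8 h and 33.3, 90.4 and 13.3 in control (2.63 ± 0.81, adjusted p = 0.018). CDKB2-1, the mitotic kinase gene, gave 158, 97.1 and 145 against 29.9, 78.3 and 17.1 (1.93 ± 0.54). In both genes the second 8 h array and the second control array came close to each other. Neither was called without the third control array, where CYCB1-1 had 1.95 (adjusted p = 0.14) and CDKB2-1 1.43 (0.094), and CYCB1-1 was also lost without the first or the third 8 h array (adjusted p = 0.074 and 0.057). CYCD5-3, a D-type cyclin gene, gave 106, 103 and 103 against 22.7, 20.4 and 18.1 (2.36 ± 0.26), with no such spread. CYCP4-1 rose by 3.00 ± 0.76. The number of cyclin, kinase and kinesin genes called higher was 20 without the second control array, and 8 to 13 without any other. The lowest counts, 8 and 9 of 73, are below the 13.3% of named genes. That share was not recounted without the same arrays.

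GH3.4, of the family that joins amino acids to auxin and jasmonate, gave 141, 109 and 262 at 8 h and 9.77, 15.2 and 1.76 in control (4.64 ± 1.06, adjusted p = 0.0014). IAA9, an Aux/IAA repressor gene, gave 176, 296 and 166 against 30.7, 21.5 and 21.2 (3.09 ± 0.43). GH3.1 rose by 3.55 ± 1.03. Without the third control array GH3.1 was not called (3.11, adjusted p = 0.064), and 11 auxin genes in place of 18 were. The bright genes IAA3 and IAA17 stayed within 2-fold, but a dimmer second probe set of IAA3 was called higher (2.26), so its change is uncertain. Of the wall genes, BC1L9 gave 331, 708 and 852 against 88.8, 59.3 and 66 (3.05 ± 0.43). GRF3 rose by 3.46 ± 1.00, and was not called without the third control array (3.05, adjusted p = 0.061). Calls of the same kind at CSLA9, EXPA6, HOS66, IAA14 and KIN7J were each lost on leaving out any of 4 or 5 of the 6 arrays, and that of IAA14 also under a replicate block and without the intensity trend. Their log2 fold changes were 3.49, 3.43, 3.26, 3.64 and 2.44, and all kept their direction.

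Markers of tissues that a leaf sample could hold in unequal amounts varied over the same arrays. Vascular markers (5 genes) summed to 1444, 645 and 1296 at 8 h and to 646, 956 and 518 in control, and limma called none of them (1 at an unadjusted p under 0.05, 0 by the methods' t-test). Dividing cell markers (17 genes) summed to 4815, 3749 and 4867 at 8 h and to 4852, 5848 and 4367 in control, with 2 higher, CYCB1-1 and CDKB2-1. Meristem and leaf primordium markers (7 genes) summed to 1146, 1036 and 1099 at 8 h and to 1188, 1196 and 1276 in control, with OSH71 the 1 gene higher. The second 8 h array was thus low and the second control array high in vascular and dividing cell sums. A sum rests on its brightest members, and the median log2 fold changes over single markers were higher at 8 h, 0.66 for vascular, 0.92 for dividing cell and 1.10 for meristem markers, beside 0.02 over named genes. Root-associated genes (17 genes) summed to 1984, 5303 and 2292 at 8 h and to 3373, 4843 and 3100 in control. NAS2, a nicotianamine synthase gene, gave 56.5, 758 and 116 against 645, 1409 and 631, and Lsi1, a silicon channel gene of roots, gave 9.53, 211 and 48.3 against 306, 178 and 298. Both were highest at 8 h in the second array. Lsi1 was called lower, but not without the first 8 h array (-1.32, adjusted p = 0.23) or the first or the third control array (0.063 and 0.062). The part of unequal tissue in the growth gene results was not tested.

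**Figure D3:**
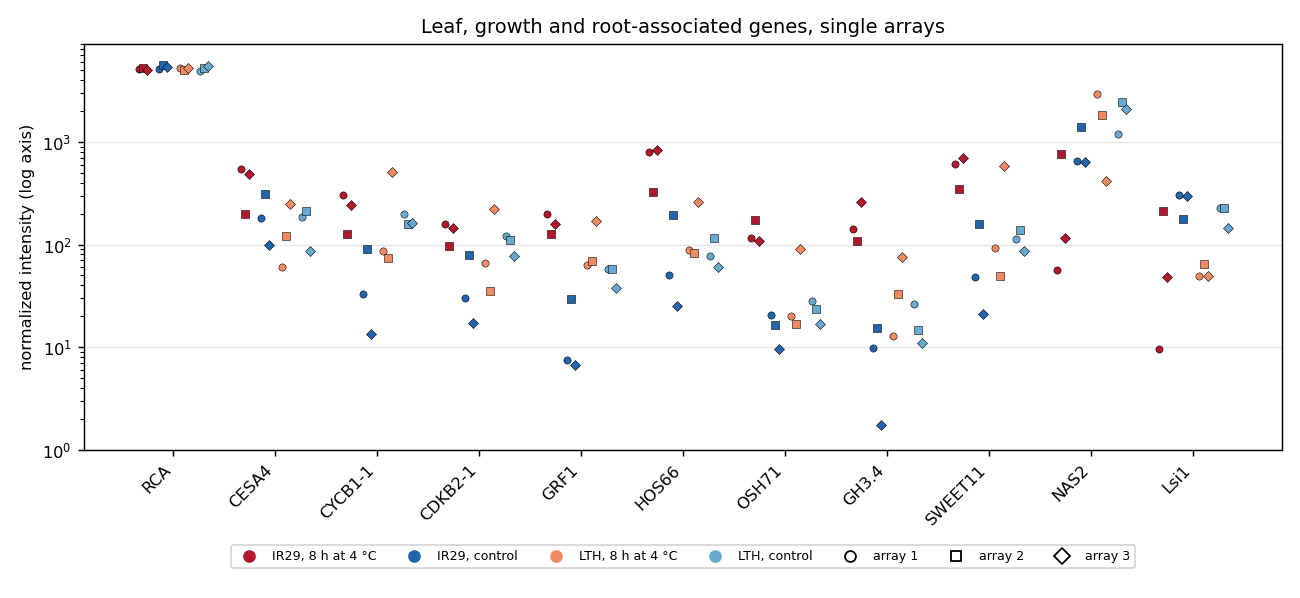
Normalized intensity (log axis) of 11 genes in single arrays of IR29 at 8 h (red), IR29 control (blue), LTH at 8 h (orange) and LTH control (light blue), with marker shapes for array 1, 2 and 3. RCA lies at nearly the same height in all 12 arrays, whereas in CYCB1-1 the third LTH array at 8 h, 514, lies far above the other LTH arrays at 8 h, 87.2 and 73.1.

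Photosynthesis genes remained bright, with few calls. Of 7 light-harvesting and photosystem genes 1 was lower, PSAG, whose 2 probe sets were called in opposite directions, so that its fall is uncertain. CAB2R, a chlorophyll a/b-binding protein gene, gave 4697, 4136 and 4867 at 8 h and 5233, 5861 and 5475 in control, and PETE, the plastocyanin gene, gave 4504, 4458 and 4502 against 4612, 5124 and 4823. Of the 6 genes in the Calvin cycle and Rubisco list only CFBP1 was called, as lower. By its annotation CFBP1 is a cytosolic fructose-1,6-bisphosphatase of sucrose synthesis, and so not an enzyme of the cycle itself. It gave 468, 737 and 580 against 2383, 2345 and 2737 (-2.09 ± 0.28, adjusted p = 1.4e-06), with a wide gap between groups.

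Chlorophyll and carotenoid genes had 4 of 16 lower, with a median of -0.80. PSY2 and PSY1, the phytoene synthase genes at the entry to carotenoids, fell to 210, 242 and 232 and to 327, 324 and 364 at 8 h, against 924, 891 and 1186 and 1031, 983 and 1227 in control. Their log2 fold changes were -2.12 ± 0.39 and -1.67 ± 0.23. PORB, a protochlorophyllide reductase gene, fell to 1021, 885 and 1167, against 2515, 2066 and 2424 in control (-1.19 ± 0.27). The magnesium chelatase gene CHLI fell by 2.31 on the log2 scale. CHLP and CAO were lower in every chilled array than in any control array but by less than 2-fold, at -0.72 and -0.49. CAO also missed the adjusted p limit in limma (0.063).

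Redox enzymes were lower in 13 and higher in 4 of 59 genes (median -0.54). Trx03, a chloroplast f-type thioredoxin gene that activates Calvin cycle enzymes in light, fell to 727, 996 and 837 at 8 h, against 3032, 2808 and 3302 in control (-1.84 ± 0.19, adjusted p = 1.3e-08). GSTZ5 of the glutathione transferase family fell to 230, 171 and 218, against 1060, 842 and 1136 (-2.30 ± 0.26), and Trx01 fell by 2.12 on the log2 scale. The glutaredoxin gene GRXC10 went the other way, with 736, 450 and 649 against 65.5, 55.9 and 50.1 (adjusted p = 6.7e-05). The catalase gene CAT-A gave 2819, 2127 and 2576 against 2572, 2167 and 2284, and its groups overlapped.

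Of 25 aquaporin genes 6 were lower and 1 higher (median -0.38). TIP1, annotated as a tonoplast aquaporin, fell to 24.5, 38.3 and 29.5 at 8 h, against 813, 471 and 733 in control (-4.44 ± 0.59, adjusted p = 1.2e-06). PIP1-3, a plasma membrane aquaporin gene, fell to 93.3, 377 and 183, against 1592, 1329 and 1474 (-2.97 ± 0.50), and PIP2-5 fell by 2.48 on the log2 scale. PIP2-8 was the 1 gene higher, with 70.1, 23.8 and 53.4 against 2.18, 4.11 and 2.33 (4.02 ± 0.74). The bright PIP1-2 and TIP1;1 did not pass.

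Other lists held few called genes. In some short lists these were still a larger share than the 13.3% higher and 11.7% lower of named genes. Limma called none of the 6 core histone genes (1 higher and 2 lower at an unadjusted p under 0.05, 0 by the methods' t-test), and the replication list had 2 higher and 2 lower of 30, with ORC2 at 1.27 and RPA14 at -1.32. Of 24 ribosomal protein genes 1 was lower, RPL27, which encodes a chloroplast protein and was within 2-fold without the second 8 h array (-0.96). Of 31 MADS-box genes 2 were lower, among them MADS58 at -1.59. Among 7 clock genes 1 was higher, PRR1 at 1.23, and 2 were lower (28.6%), with PRR37 at -1.36. For clock genes chilling and the time of sampling cannot be told apart. Phenylpropanoid genes had 4 higher and 2 lower of 31, with 4CL4, a coumarate ligase gene, at 1310, 1380 and 1300 against 547, 607 and 460 (1.31 ± 0.13) and HCT2 at 1.84 ± 0.16. Chitinases had 4 higher (33.3%) and 1 lower of 12, and Cht6 gave 285, 1117 and 547 against 162, 110 and 139. Of 7 metallothionein genes 1 was lower, MT-2 at -1.52, and of 7 BURP genes 2 were lower (28.6%), with BURP2 at -2.63. MT2B, the brightest metallothionein, gave 4815, 3536 and 4206 against 3503, 3084 and 2923 and did not pass.

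The 8 h response of IR29 was then set against that of LTH, as the IR29 log2 fold change minus the LTH log2 fold change. Of 57258 probe sets 337 (0.589%) had a more positive response in IR29 and 1295 (2.26%) a more negative one, so that 20.6% of the differences were upward. Among the probe sets up-regulated in IR29, 197 had a more positive response than in LTH and 66 a more negative one. Among those down-regulated, 587 had a more negative response and 12 a more positive one. In LTH alone, 7.26% of probe sets were higher and 6.5% lower at 8 h than in LTH control. In the lists, 11 of 82 calcium genes and 6 of 57 starch and sugar genes had a more negative response in IR29, against 4.27% of named genes. So did 2 of 6 WRKY, 2 of 8 NAC, 3 of 16 chlorophyll and carotenoid and 4 of 42 heat shock genes. The 5 of 72 type 2C phosphatase and MAP kinase genes were nearer to the share of named genes. Other lists had few or none, such as 1 of 59 redox and 0 of 73 cyclin, kinase and kinesin genes. The counts moved with single arrays, from 171 to 488 more positive and from 702 to 1487 more negative when 1 of the 12 arrays was left out. They were lowest without the first LTH control array (171 more positive) and without the second LTH array at 8 h (702 more negative), and over 1.5 times lower also without the first 8 h (203 and 860) or the third control array of IR29 (186 and 818). Leaving out the third 8 h array of IR29 or the second LTH array at 8 h gave 214 and 206 more positive.

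CBF3 rose further in IR29, the 1 gene of the 12 in the AP2/ERF list with a called difference. For its relatives DREB1B, DREB1G and DREB1E the differences were -0.04, 0.08 and 1.02 and did not pass. In IR29 the CBF3 arrays gave 1254, 1328 and 1434 at 8 h and 87.6, 23.6 and 40 in control. In LTH they gave 155, 77.5 and 128 at 8 h and 46.9, 29.2 and 21.3 in control, a difference of 3.03 ± 0.65 (adjusted p = 0.0062). LOC_Os10g40480 rose in IR29 and fell in LTH, where it gave 3.29, 4.28 and 5.64 at 8 h and 25.9, 23.9 and 7.34 in control, a difference of 7.06 ± 0.92 (adjusted p = 3.3e-05). In LTH it stayed at the bottom of the scale. LOC_Os03g60880, the permease gene, and PIP2-8 rose in IR29 and did not pass in LTH, with differences of 3.91 ± 0.99 and 4.61 ± 1.04. The permease difference was not called on leaving out any of 5 arrays (3.33 to 3.86, adjusted p from 0.055 to 0.094). LOC_Os02g20560, a fasciclin domain gene, gave 473, 82 and 328 at 8 h against 260, 872 and 95.1 in control in IR29, with overlap, and 13.8, 15.7 and 9.29 against 469, 568 and 362 in LTH. Its difference of 4.93 ± 1.25 was not called on leaving out any of 5 arrays (4.15 to 4.91, adjusted p from 0.051 to 0.098). PORB fell less in IR29 than in LTH, where it gave 242, 284 and 248 at 8 h and 2352, 1945 and 1865 in control (difference 1.80 ± 0.38). ORC2 differed by 2.14 ± 0.39.

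More differences ran the other way. HSP16.0 had the largest fitted value, -7.88 ± 1.04 (adjusted p = 3.6e-05), but its LTH arrays were at the bottom of the scale in both groups, 2.97, 1.19 and 3.04 at 8 h and 3.57, 2.14 and 2.11 in control. LTH could therefore show no fall, and the difference rests on the IR29 arrays and is a bound like the fall itself. The lectin gene LOC_Os04g34270 did not pass in IR29, with 10.9, 12.5 and 11.4 against 15.3, 18.4 and 16.9, and rose in LTH, with 819, 972 and 542 against 24.3, 45.7 and 40.8 (difference -4.95 ± 0.80). LOC_Os02g45520, an SPX domain gene, fell to 41.4, 70.2 and 44.5 in IR29, against 191, 222 and 285 in control, and rose to 1273, 1675 and 1066 in LTH, against 120, 302 and 302 in control (difference -4.75 ± 0.58). The genotypes thus moved in opposite directions at this gene.

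Os02g0137700, an NmrA-like gene, and Os01g0954000, an NADPH:quinone oxidoreductase gene, fell in IR29 and did not pass in LTH. Os02g0137700 gave 44.4, 160 and 59.7 against 767, 621 and 897 in IR29 and 1308, 2021 and 1645 against 604, 806 and 738 in LTH (difference -4.52 ± 0.84). Os01g0954000 gave 38.5, 74.8 and 51.5 against 440, 480 and 511 in IR29 (difference -3.89 ± 0.58). The same form was seen in PSY2 (-2.79 ± 0.56), CFBP1 (-2.04 ± 0.39) and Trx03 (-1.48 ± 0.26), where the LTH response did not pass. TPP1, WRKY24 and NAC067 rose in both genotypes but less in IR29, with differences of -1.77 ± 0.37, -1.91 ± 0.46 and -1.30 ± 0.37. Only that of TPP1 held whichever array was left out, while WRKY24 was lost without the first 8 h or control array of IR29 or the first LTH control array (adjusted p of 0.053 to 0.067) and NAC067 without any of 10 arrays. In each of these 3 genes the IR29 control arrays were higher than the LTH control arrays. BURP16 gave 825, 1005 and 910 against 665, 713 and 530 in IR29 and 2229, 3098 and 2214 against 510, 407 and 423 in LTH (difference -1.95 ± 0.26).

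**Figure D4:**
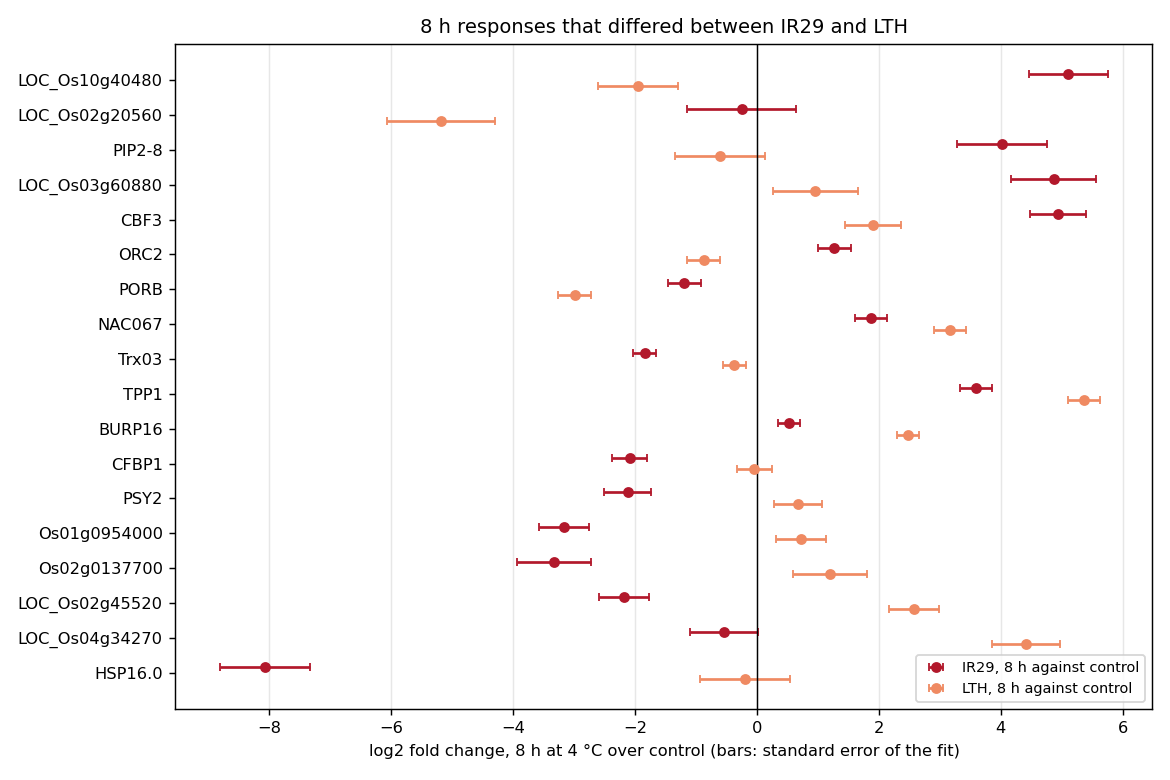
Log2 fold change of 8 h at 4 °C over control (points, with the standard error of the fit) for 18 genes whose response differed between IR29 (red, upper point) and LTH (orange, lower point). HSP16.0 fell by 8.07 on the log2 scale in IR29 and lies near 0 in LTH, whereas LOC_Os10g40480 lies at 5.11 in IR29 and -1.95 in LTH.

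Against 2 h of chilling in the same cultivar, 2944 probe sets (5.14%) were higher and 1209 (2.11%) lower at 8 h, so that 70.9% of the calls were higher. The growth lists accounted for many list calls, with 32 of 73 cyclin, kinase and kinesin genes, 16 of 42 meristem genes and 16 of 63 wall genes higher, against 13.3% of all named genes. Tissue markers moved with them, since 4 of 5 vascular markers (median 2.87) and 6 of 17 dividing cell markers (1.95) were also higher, and the vascular cellulose synthase gene CESA4 gave 545, 197 and 484 at 8 h against 157, 27.4 and 23.5 at 2 h. The part of unequal tissue in these counts was not tested. The heat shock list had 7 lower and 1 higher of 42, against 3.09% of named genes lower. Os01g0840100 fell to 58.9, 84.8 and 86 at 8 h, against 143, 1136 and 2359 at 2 h (-3.27 ± 0.91, adjusted p = 0.022). HSP24.1 fell to 56.8, 106 and 95.6, against 278, 1707 and 2859 at 2 h (-3.73 ± 0.78). The 3 arrays at 2 h differed from each other by an order of magnitude in both genes. The first and the third 2 h arrays correlated at 0.840, the lowest value in that group. Without the third 2 h array the counts were 606 higher and 194 lower, without the first 8 h array 869 and 313, without the third 8 h array 1195 and 679, without the second 2 h array 1248 and 631, and without the first 2 h array 3932 and 1902.

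Against 24 h of chilling fewer probe sets differed, 471 higher (0.823%) and 273 lower (0.477%) at 8 h. SWEET14 was higher at 8 h, with 355, 638 and 379 against 60.1, 124 and 159 at 24 h (2.06 ± 0.40, adjusted p = 0.0076). PIP2-5 and PIP2-8 were higher than at 24 h by 2.66 ± 0.50 and 3.28 ± 0.74. Leaving out 1 array at a time gave 182 to 279 higher and 76 to 231 lower, with the fewest higher without the third 8 h array and the fewest lower without the second 24 h array. The split depended on the scaling. After quantile normalization 309 were higher and 333 lower, an upward share of 48.1%, and against 2 h that share was 56.6%.

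Among probe sets up-regulated against control, 822 were also higher than at 2 h, 90 higher than at 24 h and 57 higher than at both. Of those down-regulated, 403, 39 and 15 were lower in the same way. With a name or locus and a level of at least 100, 3 genes were higher at 8 h than in control, at 2 h and at 24 h, and none was lower. Agglutinin, a lectin gene, gave 64.8, 197 and 87.9 at 8 h, 3.12, 12.4 and 16.3 at 2 h, 5.16, 3.5 and 7.92 at 24 h and 4.96, 7.97 and 3.25 in control. Os07g0617000, an AP2 domain gene, gave 380, 485 and 373 at 8 h, 140, 182 and 210 at 2 h, 174, 265 and 160 at 24 h and 57.5, 71.6 and 51.3 in control. OPR5, of the oxophytodienoate reductase family, gave 90, 194 and 86.2 at 8 h, 17.2, 14.8 and 13.9 at 2 h, 24.9, 63 and 55.5 at 24 h and 18.4, 23.3 and 18 in control. No IR29 array of control, 2 h or 24 h reached the 8 h arrays in these genes. They were chosen for being called higher than those groups, so this separation is no finding. In LTH at 8 h Agglutinin gave 6.24, 15 and 133, so 1 LTH array was within the range of IR29 at 8 h.

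**Figure D5:**
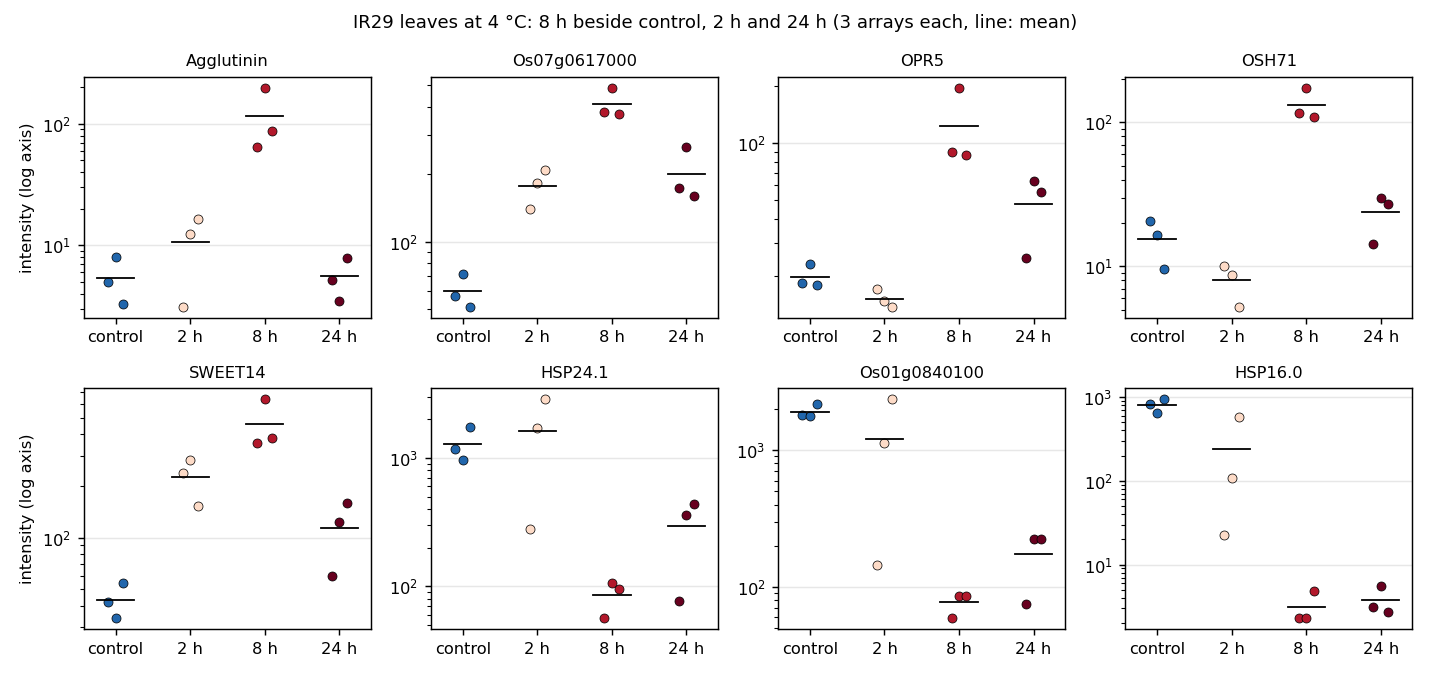
Normalized intensity (log axes) of 8 genes in IR29 control leaves and after 2, 8 and 24 h at 4 °C, with each point 1 array and each line the mean of 3. Agglutinin, Os07g0617000 and OPR5 are highest at 8 h, HSP16.0 lies between 2.30 and 5.57 at 8 h and 24 h, and the 2 h arrays of the heat shock genes are widely spread.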

How the data were processed

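The authors read the arrays with GCOS, and dChip served for normalization. Their deposited table gives linear intensities for 57258 probe sets on 36 arrays, in 12 groups of 3. How far background was removed is not given in the sources used here, and the precision at low intensity is known only from the spread between arrays. No column of other samples was present.

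The deposited intensities were taken to log2 after a floor of 1. One linear model of the 12 group means was fitted in limma 3.58.1 (R 4.3.3), moderated by eBayes with an intensity trend, and 4 contrasts were tested, with the 8 h response of LTH from the same model beside them. A probe set was called at a Benjamini-Hochberg adjusted p below 0.05 and a change of at least 2-fold. Standard errors and fold changes are on the log2 scale, with 3 arrays a group. The step was tested on simulated data.

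Probe sets were named through the platform annotation and RefSeq (22436 with 1 gene, 95 with several, 34727 with none). Fold values in the study's gene tables tied a locus to 1749 probe sets, and a further 96 ties on another chromosome were left out. The ties entered no test. They did make more genes eligible as genes with a name or locus, and only genes with at least 2 fold values in those tables could be tied. The brightest probe set stood for a gene. Of 22 called named genes with a second probe set, that probe set gave the same call in 15, none in 5 and an opposite call in 2 (PSAG and PHT1-1).

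The members, the 30 gene lists and 7 marker lists were chosen with earlier results of these data known. Named genes were the 12 largest rises and falls with a name or locus, without overlap and at a level of at least 100; the 8 largest differences from LTH each way; the 6 largest each way among genes called against control, 2 h and 24 h; up to 4 called and 2 bright uncalled members of each list; and genes the study discusses for long chilling. Alternatives covered normalization, the floor, dim probe sets, 1 probe set per gene, the samples fitted, the intensity trend, a replicate block, thresholds, the methods' t-test and leaving out each array.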

Additional observations from a re-analysis of the deposited data

Results flagged for a closer look

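These genes were singled out because their 8 h response differed between IR29 and LTH in the interaction test of limma (adjusted p below 0.05 and at least 2-fold), with the IR29 response minus the LTH response on the log2 scale. More positive in IR29 were LOC_Os10g40480 (7.06), LOC_Os02g20560 (4.93), PIP2-8 (4.61), LOC_Os03g60880 (3.91), CBF3 (3.03), AT4 (2.97), ORC2 (2.14), Os07g0617000 (1.81) and PORB (1.80). More negative in IR29 were HSP16.0 (-7.88), LOC_Os04g34270 (-4.95), LOC_Os02g45520 (-4.75), Os02g0137700 (-4.52), LOC_Os09g26670 (-4.14), Os01g0954000 (-3.89), PSY2 (-2.79), PHT1-2 (-2.78), CFBP1 (-2.04), BURP16 (-1.95), WRKY24 (-1.91), TPP1 (-1.77), Trx03 (-1.48), HSF09 (-1.43), NAC067 (-1.30), WRKY71 (-1.26) and PP2C32 (-1.07). HSF09, PP2C32 and WRKY71 stood near the threshold: leaving out 1 array lost the call of HSF09 for 9 of 12 arrays (adjusted p up to 0.11), of PP2C32 for 7 (up to 0.11) and of WRKY71 for the first IR29 control array alone, where the difference was -0.93.

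HSP16.0 gave 2.3, 2.33 and 4.81 in IR29 at 8 h and 838, 641 and 940 in IR29 control, against 2.97, 1.19 and 3.04 in LTH at 8 h and 3.57, 2.14 and 2.11 in LTH control. The array carries mostly japonica probes, and the part of sequence differences between the genotypes was not tested.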

How the results depend on the processing

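Against control, leaving out 1 array at a time gave 3348 to 4154 probe sets higher and 3769 to 4460 lower. With 1 probe set per gene 2026 were higher and 2253 lower, with the lower limit of a 90% interval at 2-fold 2179 and 2080, by the methods' t-test after adjustment 885 and 1447, and with a difference of at least 100 units, chosen after seeing the data, 1705 and 1933; with no minimum fold 6994 were lower. For IR29 minus LTH the range was 171 to 488 higher and 702 to 1487 lower, with 200 and 818 for 1 probe set per gene and 593 higher in a fit of only the groups compared. Against 2 h the range was 606 to 3932 higher and 194 to 1902 lower, and quantile normalization gave 1891 lower, 1 probe set per gene 594 and only the groups compared 587. Against 24 h the range was 182 to 279 higher and 76 to 231 lower, with 309 higher after quantile normalization, 1373 in a fit of only the groups compared and 123 lower for 1 probe set per gene.

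By the methods' t-test after adjustment the lists kept 3 higher of the AP2/ERF genes, 5 of the jasmonate genes, 6 of the calcium genes, 0 of the phosphatases and MAP kinases, 0 of the auxin genes and 4 of the cyclins, and 1 heat shock and 7 redox genes lower. Without 1 array the ranges were 6 to 6, 16 to 18, 16 to 20, 13 to 16, 11 to 19 and 8 to 20 higher in the same order and 11 to 12 and 11 to 14 lower. The cyclin list had 25 higher in a fit of only the groups compared and 6 with a difference of at least 100 units, and the redox list 28 lower with no minimum fold and 8 by the 90% interval. The causes were not tested.

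Replicate numbers did not pair IR29 at 8 h with control, since deviations of same-numbered arrays correlated at 0.00, -0.36 and -0.23. Between IR29 and LTH, which shared soil plates, they correlated at -0.02, 0.39 and 0.29 at 8 h and at 0.29, 0.29 and 0.40 in control, and at 0.58, 0.43 and -0.02 between 8 h and 2 h of IR29. The labels do not tie numbers to plates, so pairing there cannot be told. With the number as a block (replicate block) the counts were 4127 and 4597 against control, 362 and 1408 for IR29 minus LTH, 2835 and 1301 against 2 h and 481 and 292 against 24 h. No named gene changed direction while called. Of 112 named genes called against control, 91 lost the call in at least 1 alternative and 21 kept it in all; 85 lost it by the methods' t-test after adjustment and 15 on leaving out 1 array. In IR29 minus LTH 8 of 26 lost the call in at least 1 alternative, each of them without some array. The 3 arrays a group and the unknown background limit the dim genes most.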

Other observations

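Phosphate transporter genes, counted among the root-associated markers, moved in different directions in IR29. PHT1-2 fell to 20.9, 27.8 and 25.5 at 8 h, against 245, 252 and 292 in control (-3.42 ± 0.33, adjusted p = 6.2e-09 in limma). In LTH it gave 34.3, 58.2 and 30.8 at 8 h and 74.3, 59 and 52.6 in control, and the 2 control groups were not tested against each other. PHT1-8 rose, with 568, 750 and 667 at 8 h against 314, 257 and 277 in control (1.22 ± 0.35). The probe sets of PHT1-1 disagreed, the brighter at 1.53 and the next at -1.95, so no direction is given.

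LOC_Os09g26670, annotated only as an expressed protein, fell to 77.8, 121 and 65.1 in IR29 at 8 h, against 785, 702 and 1026 in control, while LTH gave 2360, 2474 and 900 at 8 h and 750, 1180 and 997 in control. AT4 rose in IR29, with 218, 236 and 257 against 67.4, 133 and 63.5, and fell in LTH, with 25.9, 34.2 and 83.1 against 132, 123 and 94.5. Its rise in IR29 was 1.51 ± 0.51 (adjusted p = 0.03 in limma), and the call was lost on leaving out any 1 of the 6 IR29 arrays other than the second control array. BURP2 fell in both genotypes, to 383, 280 and 245 in IR29 at 8 h and 72.3, 64 and 12.5 in LTH at 8 h, against 2264, 1796 and 1532 and 2168, 2037 and 1719 in their controls, and the difference between the responses, 3.04 ± 1.01, did not pass (adjusted p = 0.1).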
